A study of Mus musculus with 6 samples.

Results

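The transcripts described here are 33 genes of sugar metabolism in mouse microglia, the resident macrophages of the brain: enzymes of glycolysis, hexose and lactate transporters, the regulatory kinases of the PDK and PFKFB families, Hif1a, and enzymes of the pentose phosphate pathway. They were listed by their function, and all 33 were found among the 49585 genes that the count files list. All 33 passed the filter on low counts that left 11041 genes to test. The counts come from bulk RNA sequencing of sorted microglia from male mice aged 3 months, as 3 wild-type libraries (WT) and 3 labelled IRF8KO, which names the loss of the transcription factor IRF8. The labels give no treatment and name neither the allele nor whether the loss was limited to some cells, and each library was made from the microglia of its own brain, isolated without enzymes.

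Glycolysis splits glucose into pyruvate in the cytosol. Glucose and fructose enter through transporters of the SLC2 family, hexokinases trap glucose as a phosphate, and a chain of shared enzymes carries it to pyruvate, which is either reduced to lactate and exported by monocarboxylate transporters or taken into mitochondria. The pentose phosphate pathway branches off after hexokinase and yields NADPH and ribose. In macrophages the rate is set largely at uptake, hexokinase and phosphofructokinase, and the transcription factor HIF-1, of which Hif1a encodes the oxygen-sensitive subunit, is known to raise many of these genes. Microglia are known for a high level of Slc2a5, which encodes a fructose transporter and is low in most other macrophages.

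Gene counts ranged from 3658917 to 11098363 per library. Irf8 itself did not check the labels: the WT libraries had 4084, 12022 and 10179 of its counts and the IRF8KO libraries 4628, 7243 and 7834, a log2 fold change of −0.44 (SE 0.33) with no call (edgeR adjusted p = 0.368). It was −0.90 with library size alone (0.0076, its 1 call in 19 alternatives) and −0.11 without WT replicate 3 (0.676), so each direction below rests on the libraries' labels. Apoe took 25.5% to 33.7% of the counts in the IRF8KO libraries and at most 0.324% in WT, and values are therefore given as CPM, counts per 1000000 of a library size scaled by edgeR's TMM method. Of 9 microglial markers, 8 were counted in every library and Sall1 had 0 counts in all IRF8KO libraries; of the other 8, 3 fell and Fcrls rose, and the summed level was 39290 to 64670 CPM in WT and 28630 to 40360 CPM in IRF8KO. Of 9 border macrophage markers, Lyve1 had 0 counts everywhere. Cd163 and F13a1 had 0 in WT, so that this pair passed the filter on low counts only through IRF8KO. The 9 had sums of 612 to 835 CPM in WT and 3819 to 5036 CPM in IRF8KO. Stab1 alone made up 602 to 823 CPM of the WT sums and 1767 to 2308 CPM of the IRF8KO sums. Pf4 had 0.778 to 2.62 CPM in WT and 1536 to 2171.5 CPM in IRF8KO, and all 8 markers tested were higher in IRF8KO. IRF8KO replicate 2 alone held neutrophil transcripts, 361 CPM over 10 markers, against at most 1.12 CPM in the other libraries. Oligodendrocyte markers summed to 345, 285 and 700 CPM in WT and 692, 514 and 484 CPM in IRF8KO, in the order of the replicates. Lymphocyte markers, mostly Ighm in WT, summed to 519 to 859 CPM in WT and 29.6 to 40.9 CPM in IRF8KO. Endothelial markers summed to 18.6 to 30.3 CPM in WT and 2.89 to 9.98 CPM in IRF8KO. In bulk libraries such as these, fewer cells of a type and less RNA per cell cannot be told apart, and what part other cells had in the values below was not tested.

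Of the 33 transcripts, 7 were called in the comparison of IRF8KO with WT, 1 higher and 6 lower (edgeR's quasi-likelihood F test, with p adjusted by Benjamini-Hochberg over all tested genes and a threshold of 0.05). Over all 11041 genes 19.1% were called, 9.64% higher and 9.46% lower, so the share of 21.2% among these transcripts lay near that of any gene. The median log2 fold change of the 33 was −0.07, against −0.11 over all tested genes. That share is no result about these transcripts as a group, and the calls are described below 1 by 1. The transcripts that fell encode the fructose transporter (Slc2a5), 2 hexokinases (Hk1 and Hk3), the lactate exporter MCT4 (Slc16a3), the enzyme that makes an activator of phosphofructokinase (Pfkfb3) and HIF-1α (Hif1a), and the single transcript that rose encodes glucose-6-phosphate isomerase (Gpi1). The IRF8KO and WT values did not overlap for 13 of the 33, where 37.9% of all tested genes did not overlap. The count depended on single libraries: it was 4 without WT replicate 1, 3 without WT replicate 2, 3 without IRF8KO replicate 1, 3 without IRF8KO replicate 3, and 19 without WT replicate 3, of which 12 were higher and 7 lower, while 33.5% of all genes were called. With library sizes that leave out Apoe in place of TMM, 12 of the 33 were called, 6 higher and 6 lower, and 18.8% of all genes. The members' share thus lay near that of any gene in the reported analysis and above it in these 2 alternatives. It was also above it in other alternatives, such as no filter on low counts (12 of 33, against 12.5% of all genes) and the GC and length correction (12, against 22.4%). With RLE scaling it was below (5 of 33, against 18.1%).

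**Figure D1:**
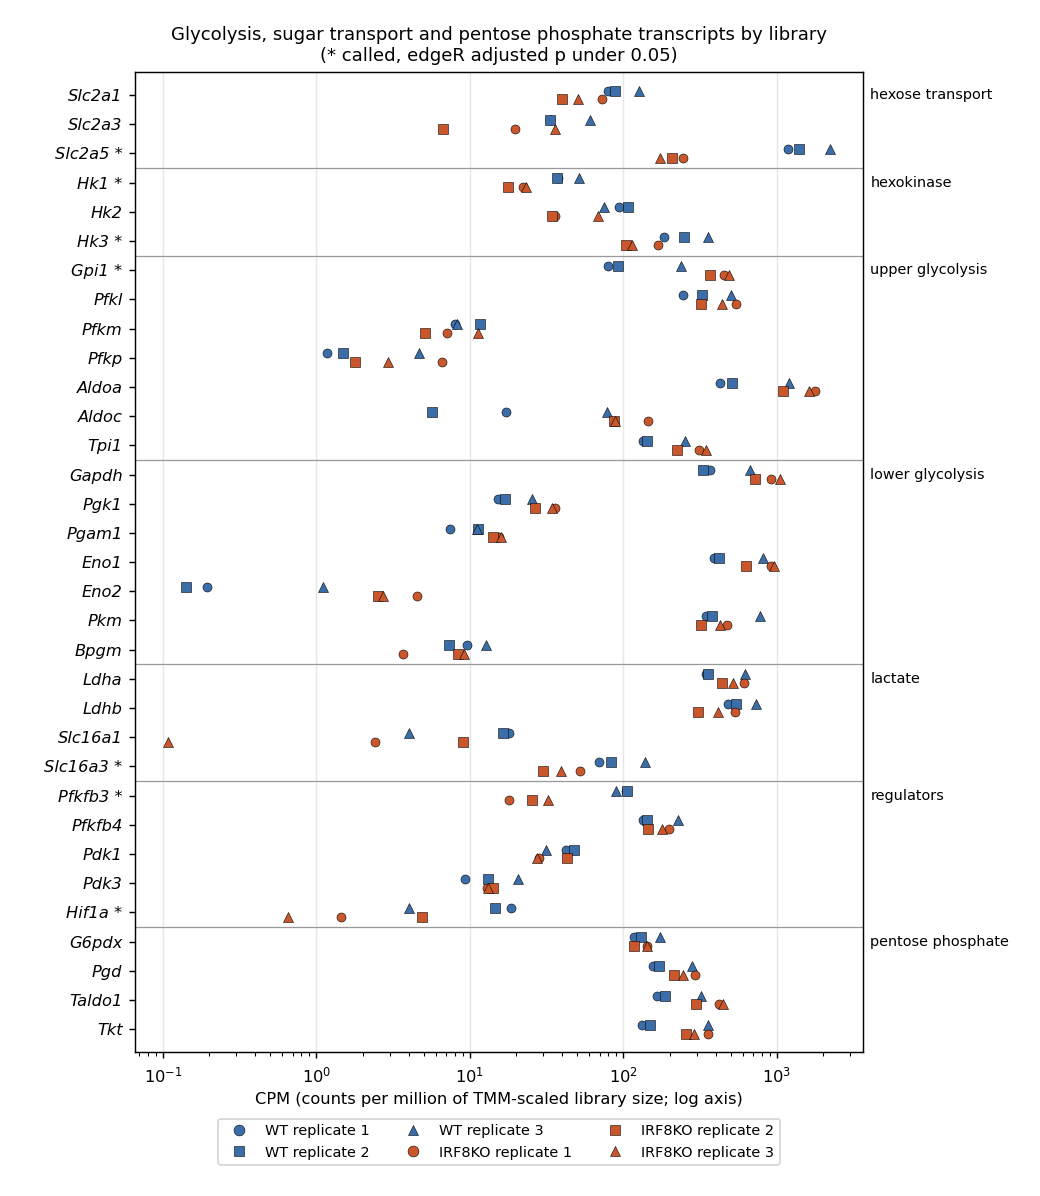
Each point is 1 library's CPM (log axis) for 1 of the 33 transcripts, grouped by role, with WT libraries in blue and IRF8KO libraries in orange and a mark shape for each replicate number. Slc2a5 and Pfkfb3 show wide gaps between the groups, while for Aldoa, Tpi1, Eno1 and Tkt the triangle of WT replicate 3 sits among the IRF8KO points.

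Slc2a5, the fructose transporter GLUT5 (ENSMUSG00000028976, chr4:150119283-150144169, plus strand, GRCm38), had 1190.5, 1388 and 2225 CPM in WT and 246, 206 and 172 CPM in IRF8KO, values that, here and below, are in the order of replicates 1 to 3. Every IRF8KO library lay far below every WT library. The level fell by 2.94 on the log2 scale, or 7.69-fold (SE 0.36; edgeR adjusted p = 2.2e-04), and it was called in all 19 alternative analyses, with log2 fold changes from −3.39 to −2.60. Per kilobase of exon, Slc2a5 was the most abundant of the 33 transcripts in each WT library, at a mean of 471 ± 161 CPM per kb (SD, n = 3), and ranked 9th to 11th in the IRF8KO libraries, at 61.2 ± 10.8 CPM per kb.

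Neither glucose transporter was called. Slc2a1, which encodes GLUT1, the transporter of most cells, had 79.2, 88.1 and 127 CPM in WT and 72.4, 40.1 and 50.5 CPM in IRF8KO, with no overlap between the groups and a difference of −0.85 on the log2 scale (SE 0.31) without a call (edgeR adjusted p = 0.077). Slc2a3, the high-affinity glucose transporter GLUT3, had 33.5, 33.1 and 60.5 CPM in WT and 19.6, 6.73 and 35.8 CPM in IRF8KO. IRF8KO replicate 3 lay above 2 of the 3 WT libraries, and the difference of −1.03 (SE 0.50) missed the threshold (edgeR adjusted p = 0.172). Slc2a1 was called in 7 of 19 alternatives and Slc2a3 in 2. Slc2a3 is abundant in neutrophils, and the part of the neutrophil transcripts of IRF8KO replicate 2, where its value was lowest, was not tested.

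All 3 hexokinase transcripts had log2 fold changes close to −1, and 2 of them were called. Hk1, the broadly made form (ENSMUSG00000037012, chr10:62268855-62379908, minus strand), had 37.7, 36.9 and 51.4 CPM in WT and 22.3, 17.7 and 23.2 CPM in IRF8KO. Hk3, the form typical of myeloid cells (ENSMUSG00000025877, chr13:55005985-55021385, minus strand), had 183, 250.1 and 357 CPM in WT and 168, 103 and 115 CPM in IRF8KO. Hk2, the inducible form, had 93.8, 108 and 75.1 CPM in WT and 36.1, 34.55 and 68.5 CPM in IRF8KO. For each of the 3 the groups did not overlap, with IRF8KO replicate 1 closest to WT for Hk3 and IRF8KO replicate 3 closest for Hk2. The log2 fold changes were −0.997 (SE 0.30) for Hk1, −1.03 (SE 0.33) for Hk3 and −0.99 (SE 0.33) for Hk2, with edgeR adjusted p of 0.037, 0.046 and 0.053. These calls sat near the threshold. Hk1 lost its call in the 5 fits that left out any library but WT replicate 3, with edgeR adjusted p from 0.069 without WT replicate 1 and 0.078 without WT replicate 2 to 0.106, 0.101 and 0.112 without IRF8KO replicates 1, 2 and 3. Hk3 lost its call without WT replicate 2 (edgeR adjusted p = 0.101) and without IRF8KO replicate 1, 2 or 3 (0.070, 0.141 and 0.204), whereas Hk2 gained one without WT replicate 3 (0.019) or IRF8KO replicate 3 (0.038) and in 10 of the 19 alternatives in all. Hk3 also lost its call with RLE scaling (0.062) and with the replicate block (0.054), and Hk1 with first-strand counts (0.070). Hk3 is made by neutrophils too; IRF8KO replicate 2, which held neutrophil transcripts, had its lowest value, and their part in it was not tested.

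In upper glycolysis, before the 3-carbon stage, 6 of 7 transcripts had positive log2 fold changes, as did 45.8% of all tested genes, and 1 was called. Gpi1 (ENSMUSG00000036427, chr7:34201330-34230336, minus strand), the isomerase that turns glucose 6-phosphate into fructose 6-phosphate, had 79.0, 92.5 and 239 CPM in WT and 451, 365 and 489 CPM in IRF8KO. Each IRF8KO library lay above each WT library, and WT replicate 3 stood well above the other WT libraries. The level rose by 1.67 on the log2 scale, or 3.18-fold (SE 0.41; edgeR adjusted p = 0.015), and the direction held in all 19 alternatives, from 1.28 to 2.37. The call was lost without WT replicate 1 (edgeR adjusted p = 0.051), WT replicate 2 (0.068), IRF8KO replicate 1 (0.061) or IRF8KO replicate 3 (0.089), and without WT replicate 3 the log2 fold change was 2.37 with an adjusted p of 4.5e-05. Gpi1 shares 11.5% of its exonic length with other genes, and the 1 other gene that holds 10.2% of its 50-base words had counts of at most 0.606% of its own in either group.

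Aldoa, the aldolase of most tissues, had 427, 512 and 1206 CPM in WT and 1768, 1094.5 and 1630 CPM in IRF8KO. Per kilobase it was the most abundant of the 33 in each IRF8KO library and the 3rd most abundant in each WT library. WT replicate 3 lay above IRF8KO replicate 2, and the difference of 1.07 (SE 0.42) missed the threshold (edgeR adjusted p = 0.094), but was 1.70 (SE 0.22; adjusted p = 5.1e-04) without WT replicate 3. Aldoa was also called in 5 alternatives that kept WT replicate 3, such as the GC and length correction (0.97, edgeR adjusted p = 0.018). Tpi1, triose phosphate isomerase, likewise had WT replicate 3 above IRF8KO replicate 2, with 134, 143 and 251 CPM in WT and 309.9, 223 and 344 CPM in IRF8KO, a log2 fold change of 0.73 (SE 0.33; edgeR adjusted p = 0.138), and 1.10 with a call (0.0033) without WT replicate 3; it was also called with library size without Apoe (0.76, 0.016).

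Aldoc, the brain aldolase used as a marker of astrocytes, had 17.3, 5.66 and 78.4 CPM in WT and 144, 86.5 and 88.5 CPM in IRF8KO, with no overlap. It had a log2 fold change of 1.66 (SE 0.69) and no call (edgeR adjusted p = 0.112), and 3.31 without WT replicate 3 (adjusted p = 6.1e-04). It was also called, with that library kept, under no filter on low counts (1.57, edgeR adjusted p = 9.1e-05) and by limma-voom (2.59, adjusted p = 0.017). Of 8 other astrocyte markers, 4 were tested, of which Gfap and Aldh1l1 rose and Slc1a3, which microglia also express, fell, while Slc1a2, with 1 count in each WT library, passed the filter only through IRF8KO; Gja1 had 0 counts in 5 of the 6 libraries and Aqp4 was at 0 to 1.08 CPM. Slc1a3 alone made up 84.4 to 191 CPM in WT and 2.71 to 15.7 CPM in IRF8KO, of sums over all 8 of 96.1 to 196 and 26.1 to 56.0 CPM. The 7 markers without it summed to 5.45, 2.83 and 11.7 CPM in WT and 48.15, 32.0 and 23.4 CPM in IRF8KO, higher in each IRF8KO library and, among WT, highest in WT replicate 3, as for Aldoc. Their part in the Aldoc values was not tested.

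The 3 subunits of phosphofructokinase, the committed step, were not called. Pfkl, the liver-type subunit, held most of the family, with 245, 327 and 499 CPM in WT and 542, 322 and 437 CPM in IRF8KO, ranges that overlapped in part and a log2 fold change of 0.28 (SE 0.34; edgeR adjusted p = 0.602) that changed sign to −0.20 when scaled by library size alone. Pfkm, the muscle type, stayed between 5.12 and 11.6 CPM in all libraries, and Pfkp, the platelet type, between 1.17 and 6.58 CPM.

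Below the split into triose phosphates, 5 of 7 transcripts had positive log2 fold changes and none was called (edgeR); 33.7% of all tested genes, Gapdh and Pgk1 among them and Eno2 left aside for its few counts, had an unadjusted p under 0.05. Gapdh, glyceraldehyde phosphate dehydrogenase, had 368, 329 and 671 CPM in WT and 912, 721 and 1050.4 CPM in IRF8KO. All IRF8KO values exceeded all WT values, although this gene is often used as a constant reference, and the log2 fold change was 0.97 (SE 0.35; edgeR adjusted p = 0.071). It was called in 8 of the 19 alternatives, among them the one that left out WT replicate 3 (1.39, edgeR adjusted p = 8.1e-04), and it stayed positive in all 19, from 0.52 to 1.39.

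Pgk1, phosphoglycerate kinase, had 15.4, 16.9 and 25.5 CPM in WT and 35.6, 26.6 and 34.4 CPM in IRF8KO, and Pgam1, phosphoglycerate mutase, had 7.39, 11.3 and 11.2 against 15.4, 14.1 and 15.9 CPM. Both sets were separated, and neither log2 fold change, 0.74 (SE 0.33) and 0.60 (SE 0.39), was called (edgeR adjusted p of 0.134 and 0.306). Without WT replicate 3, Pgk1 was called at 1.02 (adjusted p = 0.019). Only reads with 1 place in the genome were counted, and 68.0% of the 50-base words of the Pgk1 transcript and 41.5% of those of Pgam1 recur in transcripts of other annotated genes, so both levels are uncertain. The same holds in part for Eno1 (72.2% of words shared), Pkm (34.4%), Gapdh (27.8%), Ldhb (27.0%), Ldha (16.6%) and Aldoa (13.5%). Adding the counts of near-identical copies to Eno1, Gapdh, Gpi1, Ldhb, Pgam1, Pgk1 and Pkm left the number of calls at 7. The copies' counts also hold only reads with 1 place, and were at most 2.5% of a member's count in either group. Adding them therefore cannot recover the shared reads.

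Eno1, the enolase of most cells, had 387, 420.2 and 816 CPM in WT and 919, 629 and 963 CPM in IRF8KO. WT replicate 3 again lay within the IRF8KO range, and the difference of 0.63 (SE 0.36) missed the threshold (edgeR adjusted p = 0.241); without WT replicate 3 it was 1.08 (adjusted p = 0.0036), and it was called in 3 alternatives that kept that library, at 0.75 (0.033) with the GC and length correction. The near-identical Eno1b and another copy carried 2.5% of Eno1's count in WT and 2.46% in IRF8KO. Eno2, the neuronal enolase, was near the limit of detection, with 1, 2 and 8 counts in WT and 28, 28 and 25 in IRF8KO, so that it passed the filter only through the IRF8KO libraries. Because of that, its fold change and test are not given, and its place in the counts of calls is to be read with that limit. The summed level of 10 neuronal markers was 0.637 to 10.9 CPM in WT, highest in WT replicate 3 as for Eno2, and 22.9 to 31.2 CPM in IRF8KO, with Gad1 at 0 counts in 5 of the 6 libraries; their part in the Eno2 values was not tested.

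Pkm, pyruvate kinase, had 347, 376 and 775 CPM in WT and 474, 319 and 429 CPM in IRF8KO, with a log2 fold change of −0.29 (SE 0.36; edgeR adjusted p = 0.606), or 0.20 without WT replicate 3 (adjusted p = 0.443). Its 1 call in an alternative was with library size alone (−0.74, edgeR adjusted p = 0.023). Its exons share 15.3% of their length with other genes. Bpgm, which makes the 2,3-bisphosphoglycerate of red blood cells, had 9.53, 7.29 and 12.8 CPM in WT and 3.69, 8.35 and 9.22 CPM in IRF8KO and was not called in any analysis. Red blood cell markers, 7 in all with Slc4a1 at 0 everywhere, summed to 0, 0 and 57.6 CPM in WT and 53.8, 96.5 and 437 CPM in IRF8KO. Within IRF8KO the Bpgm values had the same order as these sums, and WT replicate 3, the WT library that held such markers, had the highest Bpgm value. Across groups the order differed. WT replicate 1, with a sum of 0, had more Bpgm (9.53 CPM) than IRF8KO replicate 3 (9.22 CPM), which had the highest sum. The part of red blood cells in the Bpgm values was not tested.

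At the lactate end, Slc16a3 fell. It encodes MCT4, the exporter of strongly glycolytic cells (ENSMUSG00000025161, chr11:120948480-120960868, plus strand), and had 69.3, 83.1 and 138 CPM in WT and 52.0, 30.1 and 39.5 CPM in IRF8KO. No library of one group reached the range of the other. The level fell by 1.26 on the log2 scale, or 2.39-fold (SE 0.34; edgeR adjusted p = 0.022), and was called in 17 of 19 alternatives, the exceptions being the fits without IRF8KO replicate 2 (−1.08, adjusted p = 0.079) and without IRF8KO replicate 3 (−1.23, 0.117). Slc16a1, which encodes the bidirectional transporter MCT1, varied more between libraries than between groups, with 18.1, 16.4 and 3.998 CPM in WT and 2.41, 8.97 and 0.108 CPM in IRF8KO, the last from 1 count. The difference of −1.72 (SE 0.95) missed the threshold (edgeR adjusted p = 0.225), but it was called at −3.41 (0.044) without IRF8KO replicate 2 and at −1.67 (0.030) with no filter on low counts.

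The 2 subunits of lactate dehydrogenase were not called. Ldha, whose product favours lactate formation, had 348, 355 and 617 CPM in WT and 613, 442 and 519 CPM in IRF8KO, a log2 fold change of 0.25 (SE 0.32; edgeR adjusted p = 0.620). Ldhb, whose product favours the return to pyruvate, had 478, 545 and 731 CPM in WT and 535, 305 and 412 CPM in IRF8KO, a log2 fold change of −0.49 (SE 0.32; edgeR adjusted p = 0.309). Neither separated the groups on its own. Without WT replicate 3, Ldha was called at 0.61 (adjusted p = 0.027), and scaled by library size alone its sign changed to −0.21. Ldhb was called with the GC and length correction at −1.19 (edgeR adjusted p = 0.0032) and with library size alone at −1.001 (0.0022).

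A share within a family is taken within 1 library, so it does not depend on how libraries are scaled. With counts per kilobase of exon, Ldha made up 25.7%, 23.6% and 28.6% of the lactate dehydrogenase level in WT and 35.2%, 40.7% and 37.4% in IRF8KO. Every IRF8KO library lay above every WT library, WT replicate 3 included, and the means differed by 11.8 percentage points, from 26.0% ± 2.49 to 37.8% ± 2.79 (SD, n = 3), or by 10.3 to 13.1 points when any 1 library was left out. The part of GC content in this difference was not tested; the GC and length correction moved Ldhb more than 1.5 times, as given above. With 3 libraries against 3, a two-sided exact permutation test cannot go below p = 0.1, which is what it gave here; over the 7 families tested the Benjamini-Hochberg adjusted value was 0.233.

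Among the hexose transporters, Slc2a5 held 92.8%, 93.2% and 93.6% of the family's level in WT and 75.6%, 83.1% and 72.4% in IRF8KO, a difference of −16.2 points (exact permutation p = 0.1, adjusted 0.233). The share of Slc2a1 was 5.17% to 5.99% in WT and 15.7% to 21.6% in IRF8KO, although its own level was lower there. Slc2a5 thus remained the main transcript of the 3 in all libraries. Enolase stayed almost wholly Eno1, with means of 99.9% in WT and 99.6% in IRF8KO; the rest is Eno2, whose few counts allow no reading of that difference. In the other 4 families the groups overlapped. Hk3 was the main hexokinase, at 71.2% to 83.9% in WT and 68.7% to 84.1% in IRF8KO, and the share of Hk2 differed by −0.27 points (exact permutation p = 1). Pfkl made up 93.2% to 96.9% of phosphofructokinase and Aldoa 93.2% to 99.0% of aldolase over all 6 libraries (exact permutation p = 0.2 each, adjusted 0.28). Slc16a3 ranged from 73.6% to 99.7% of the 2 lactate transporters, with both extremes in IRF8KO (p = 0.8 in the same exact test).

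**Figure D2:**
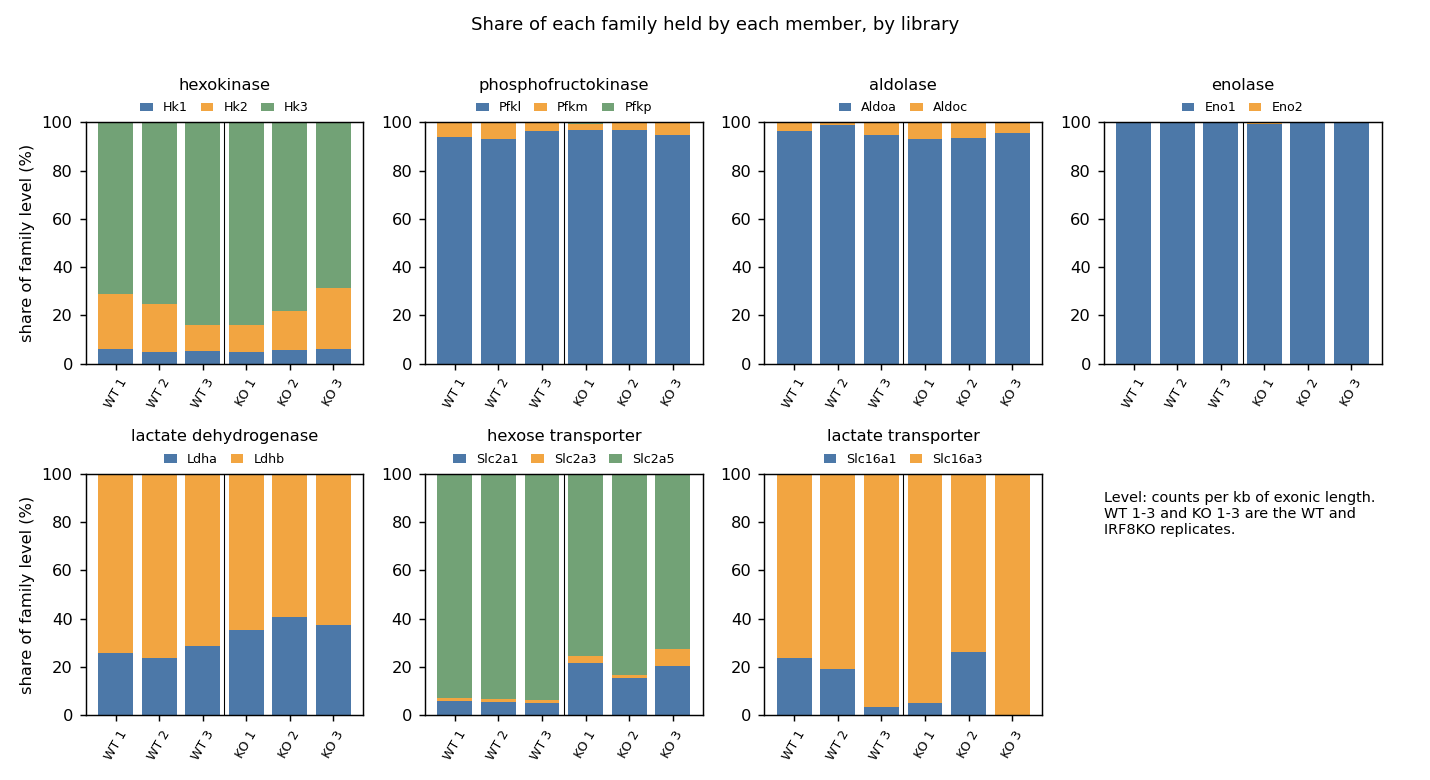
Stacked bars show, for each library (WT 1 to 3 and KO 1 to 3, the IRF8KO replicates), the percentage of a family's level, in counts per kilobase of exon, held by each member. The Ldha part is larger in each IRF8KO library (35.2% to 40.7%) than in each WT library (23.6% to 28.6%), and the Slc2a5 part is smaller.

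Of the regulators, Pfkfb3 and Hif1a fell and 3 others were not called. Pfkfb3 encodes the form with high kinase activity of the enzyme that makes fructose 2,6-bisphosphate, the main activator of phosphofructokinase (ENSMUSG00000026773, chr2:11471433-11554077, minus strand). It had 104, 106 and 89.3 CPM in WT and 17.98, 25.6 and 32.3 CPM in IRF8KO, so WT replicate 3 lay close to the other WT libraries and the groups lay far apart. The level fell by 1.97 on the log2 scale, or 3.93-fold (SE 0.30; edgeR adjusted p = 9.3e-04), and the call held in all 19 alternatives, from −2.47 to −1.77. Pfkfb4, a related bifunctional enzyme, was alike in both groups within the spread, with 133, 142 and 228 CPM in WT and 199, 144 and 178 CPM in IRF8KO and a log2 fold change of 0.05 (SE 0.30; edgeR adjusted p = 0.935).

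Hif1a (ENSMUSG00000021109, chr12:73901375-73947530, plus strand) was scarce, with 18.7, 14.7 and 3.998 CPM in WT and 1.44, 4.85 and 0.651 CPM in IRF8KO. IRF8KO replicate 2 lay above WT replicate 3, so the groups overlapped. The level fell by 2.39 on the log2 scale (SE 0.77; edgeR adjusted p = 0.048). That call was lost in 10 of the 18 alternatives in which the gene was tested, among them the GC and length correction (−1.55, edgeR adjusted p = 0.069) and the fits without WT replicate 1 (0.155), WT replicate 2 (0.116), IRF8KO replicate 1 (0.160) or IRF8KO replicate 3 (0.177). It held at −3.58 (edgeR adjusted p = 0.015) without IRF8KO replicate 2 and at −2.72 (0.015) without WT replicate 3. At 41.3%, its GC content is the lowest of the 33, and 8.11% of its exonic length is shared with other genes. Pdk1 and Pdk3, kinases that switch off pyruvate dehydrogenase, were not called: Pdk1 had 42.0, 47.8 and 31.3 CPM in WT and 28.25, 43.1 and 27.4 CPM in IRF8KO, and Pdk3 had 9.34, 13.2 and 20.5 against 12.8, 14.2 and 13.1 CPM, with log2 fold changes of −0.29 (SE 0.31) and −0.10 (SE 0.40).

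The promoters of 4 of the 5 transcripts that fell and hold ACGTG there are printed here, because HIF-1 binds short words with the core ACGTG or GCGTG and proteins of the ETS family, to which the IRF8 partner PU.1 belongs, bind words such as AGGAAGT. Each window runs from 250 bases before to 50 bases after a RefSeq transcription start (GRCm38.p6), on the gene's strand, and capitals mark ACGTG or AGGAAGT on either strand (CACGT and ACTTCCT on the other strand). The word CACGTG, an E-box, contains ACGTG on both strands. They are Hk3 at chr13:55021336-55021635 (minus), Slc16a3 at chr11:120948817-120949116 (plus), Pfkfb3 at chr2:11502041-11502340 and chr2:11553880-11554179 (minus, 2 starts), and Hif1a at chr12:73907617-73907916 (plus).
Hk3: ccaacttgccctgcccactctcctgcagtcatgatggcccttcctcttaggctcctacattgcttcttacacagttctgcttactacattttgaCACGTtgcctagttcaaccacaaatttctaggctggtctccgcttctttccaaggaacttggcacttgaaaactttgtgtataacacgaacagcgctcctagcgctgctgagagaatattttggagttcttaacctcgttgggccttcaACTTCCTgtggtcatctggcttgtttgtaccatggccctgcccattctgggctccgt
Slc16a3: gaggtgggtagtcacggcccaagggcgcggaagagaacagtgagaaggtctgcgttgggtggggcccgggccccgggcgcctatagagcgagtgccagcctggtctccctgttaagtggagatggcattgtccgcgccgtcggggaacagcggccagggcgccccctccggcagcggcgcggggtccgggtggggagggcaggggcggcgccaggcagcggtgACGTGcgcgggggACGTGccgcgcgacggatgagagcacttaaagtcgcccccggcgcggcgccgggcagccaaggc
Pfkfb3, start at the lower coordinate: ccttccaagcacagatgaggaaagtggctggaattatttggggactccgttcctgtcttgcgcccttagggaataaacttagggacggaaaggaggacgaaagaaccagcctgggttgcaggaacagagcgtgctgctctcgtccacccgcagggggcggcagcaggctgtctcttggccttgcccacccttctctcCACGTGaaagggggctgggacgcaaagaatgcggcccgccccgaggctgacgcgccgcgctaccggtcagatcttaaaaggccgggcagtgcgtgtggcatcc
Pfkfb3, start at the higher coordinate: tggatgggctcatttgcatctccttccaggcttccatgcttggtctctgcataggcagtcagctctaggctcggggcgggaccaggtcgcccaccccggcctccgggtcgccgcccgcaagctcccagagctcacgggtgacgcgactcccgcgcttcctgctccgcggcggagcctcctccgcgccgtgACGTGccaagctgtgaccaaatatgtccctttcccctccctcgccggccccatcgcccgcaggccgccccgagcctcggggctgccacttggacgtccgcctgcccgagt
Hif1a: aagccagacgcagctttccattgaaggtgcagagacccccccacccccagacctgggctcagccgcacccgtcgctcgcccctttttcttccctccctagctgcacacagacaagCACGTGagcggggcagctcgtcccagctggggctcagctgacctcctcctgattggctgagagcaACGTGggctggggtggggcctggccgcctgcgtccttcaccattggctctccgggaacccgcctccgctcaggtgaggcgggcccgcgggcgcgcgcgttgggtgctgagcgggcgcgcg

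Of the 33 genes, 32 had at least 1 window in the RefSeq table, 46 windows in all, and ACGTG was found in 21 of them, or 45.7%, against 19.6% of the table's 32851 windows. Slc16a3 carries it 27 and 14 bases before its start, Hk3 at 156 bases and an AGGAAGT 7 bases before its start. GCGTG was found in 54.3% of the members' windows and 32.4% of all, CACGTG in 10.9% and 7.15%, and AGGAAGT in 4.35%, those of Hk3 and Pgk1, and 9.35%. The composite element bound by ETS and IRF proteins together was found in 1 window, of Pdk1 (2.174% against 2.72% of all windows), and the IRF repeat element in none (3.44% of all). All words were sought on both strands, a match is only a description of these letters, and Slc2a3 has no window in the table. Overlapping windows of Aldoa hold the same ACGTG, so windows are not independent. The base composition of the members' windows was not set against that of all windows, and its part in these percentages was not tested. The windows of Slc2a5 and Gpi1, the transcripts with the largest fall and the single rise, hold neither ACGTG nor AGGAAGT. Transcripts that fell (Hk1, Hk3, Slc16a3, Pfkfb3, Hif1a) and transcripts with positive log2 fold changes (Aldoa, Gapdh, Pgk1) both carry ACGTG.

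In the pentose phosphate pathway no transcript was called and each pair of groups overlapped; Taldo1 had an unadjusted p under 0.05 in edgeR, where 33.7% of all tested genes had one. G6pdx, glucose-6-phosphate dehydrogenase, the entry step that makes NADPH, had 118, 129.9 and 173 CPM in WT and 142, 118 and 142 CPM in IRF8KO, a log2 fold change of −0.07 (SE 0.27; edgeR adjusted p = 0.891). Pgd, the next NADPH-making enzyme, had 155, 170.5 and 279 CPM in WT and 292, 215 and 246 CPM in IRF8KO, with 0.32 (SE 0.31; 0.509). Taldo1, transaldolase of the non-oxidative branch, had 167, 187 and 321 CPM in WT and 423, 297 and 448 CPM in IRF8KO, with 0.79 (SE 0.33; 0.115). Tkt, its partner transketolase, had 132, 149.8 and 355 CPM in WT and 356, 255 and 290.1 CPM in IRF8KO, with 0.50 (SE 0.38; 0.385). WT replicate 3 was the highest WT library for all 4. Without it, Pgd, Taldo1 and Tkt were called at log2 fold changes of 0.65, 1.16 and 1.12 (edgeR adjusted p of 0.021, 0.0023 and 0.0020), while Taldo1 was also called with library size without Apoe (0.82, 0.010). G6pdx was not called without WT replicate 3, at 0.14 (edgeR adjusted p = 0.559), though it was with library size alone (−0.55, 0.041).

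Many calls among these transcripts changed with WT replicate 3. Some changed while it was kept, with the scaling, filter, tool, strand column, GC and length correction or replicate block. This was so for Gapdh in 7 alternatives, Aldoa in 5, Aldoc in 4, Eno1 in 3, and Tpi1 and Taldo1 in 1 each. WT replicate 3 was the highest of the 3 WT libraries for 26 of the 33 transcripts, or 78.8%, and for 40.8% of all tested genes. Across the 33, the excess of WT replicate 3 over the mean of its 2 fellow libraries, on the log2(CPM + 1) scale, had a Spearman correlation of 0.36 with GC content, and of 0.63 across 11034 tested genes; genes share a library and are not replicates, and the part of GC content in these values was not tested. The 33 had a median GC content of 52.8%, against 50.1% over the tested genes. Without WT replicate 3, edgeR called 33.5% of 11953 tested genes and 19 of the 33: all 7 called with it, and also Hk2 (lower) and Aldoa, Aldoc, Tpi1, Gapdh, Pgk1, Eno1, Eno2, Ldha, Pgd, Taldo1 and Tkt (higher); Eno2 is 1 of the 12 higher only with the limit given above. With the GC and length correction and all 6 libraries, 12 of the 33 were called, 5 higher and 7 lower, against 22.4% of all genes.

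**Figure D3:**
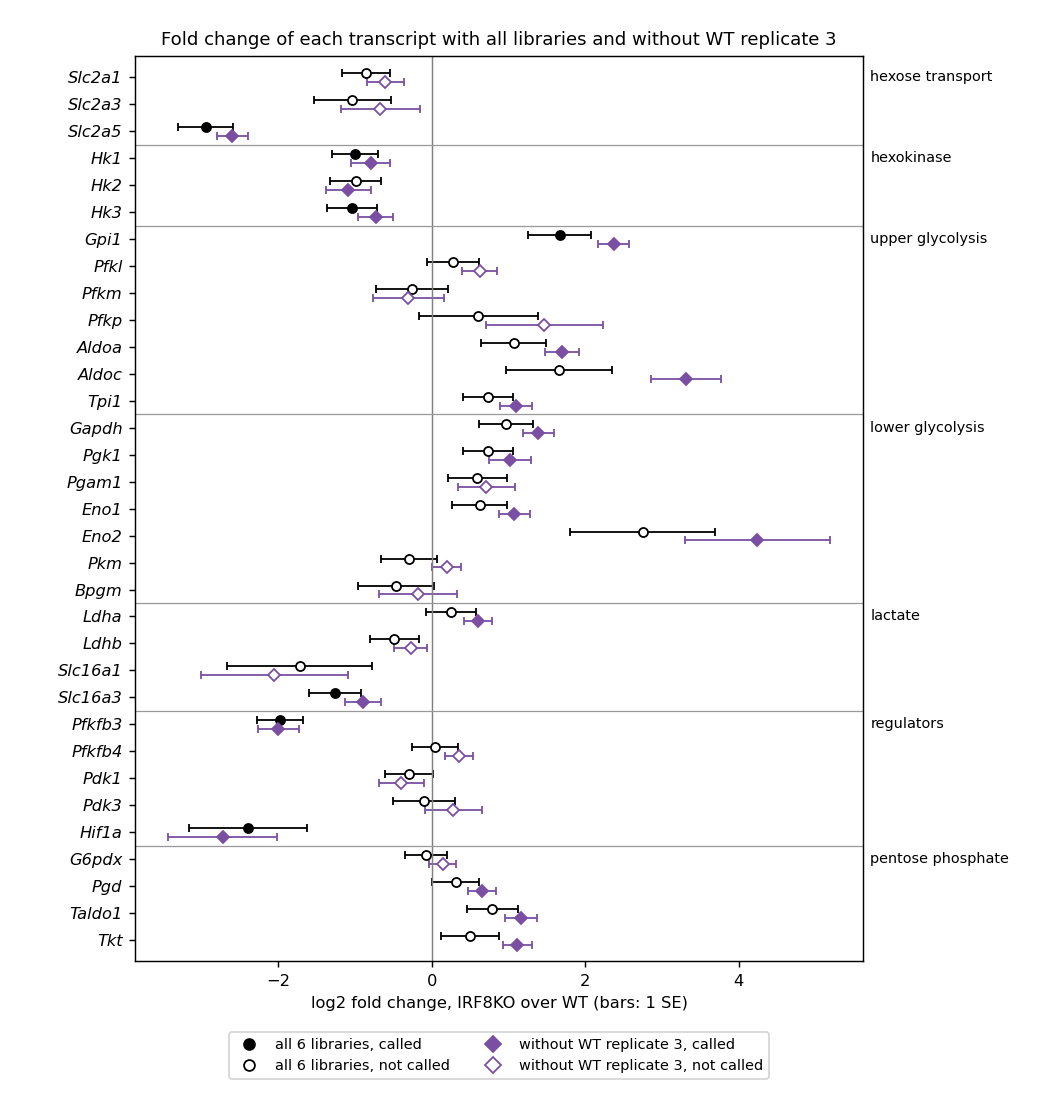
Log2 fold changes of IRF8KO over WT with 1 SE for each of the 33 transcripts, from all 6 libraries (black circles) and without WT replicate 3 (purple diamonds). Filled marks were called. The marks of Eno2, which passed the filter on low counts only through IRF8KO, are not to be read as a test. Transporters and hexokinases lie left of 0 in both fits, and Gpi1, Aldoa, Gapdh and Eno1 lie right of 0 and move further right without WT replicate 3.

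Neighbouring pathways were read from 9 lists with 110 genes. Of the 94 that could be tested, 22 were called (23.4%, against 19.1% of all genes), 10 higher and 12 lower, and their median log2 fold change was −0.29. The glycogen list had 4 of 13 genes higher and 1 lower. Of these, Stbd1 (1.62, edgeR adjusted p = 0.025) and Ppp1r3d (−1.87, 0.015), named after their values were seen, were called in 13 and 16 of 19 alternatives, with adjusted p up to 0.115 and 0.084, both without IRF8KO replicate 3. Pygm and Pygl, glycogen phosphorylases that release glucose from glycogen, rose from 2.96 ± 1.15 to 25.7 ± 5.94 CPM and from 6.26 ± 3.27 to 32.0 ± 3.41 CPM (SD, n = 3), with log2 fold changes of 3.13 (SE 0.45) and 2.36 (SE 0.45) and edgeR adjusted p of 7.0e-04 and 0.0038. Gyg, the primer of glycogen, rose from 13.4 ± 3.79 to 36.5 ± 4.57 CPM (log2 fold change 1.44, SE 0.33, edgeR adjusted p = 0.011). Pygm was called in all 19 alternatives, Pygl in 18, with 1.77 (0.062) under library size alone, and Gyg in 16; Gyg lost its call without WT replicate 1 (0.052), IRF8KO replicate 1 (0.058) or IRF8KO replicate 3 (0.056).

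Between pyruvate and acetyl-CoA, 4 of the 12 genes tested passed, 1 above 0 and 3 below, of which 1, Pdp1, had too few counts to be read as a test. Dld, the dihydrolipoamide dehydrogenase shared by mitochondrial dehydrogenase complexes, fell from 14.8 ± 3.47 to 2.38 ± 0.956 CPM, and Pdpr, a regulatory subunit of the phosphatase that switches pyruvate dehydrogenase on, from 7.97 ± 2.12 to 1.41 ± 0.745 CPM (SD, n = 3). Dld was at −2.62 on the log2 scale (SE 0.51; edgeR adjusted p = 0.0042) and Pdpr at −2.45 (SE 0.62; 0.016). Pdp1, a catalytic subunit of that phosphatase, passed the filter on low counts only through WT, with 20, 47 and 25 counts there and 0, 2 and 2 in IRF8KO, so its fold change and test are not given. The call of Pdpr was lost without WT replicate 1 (edgeR adjusted p = 0.068), IRF8KO replicate 1 (0.065) or IRF8KO replicate 3 (0.087). The call above 0, named after its values were seen, was Mpc2, a subunit of the mitochondrial pyruvate carrier, at 1.11 (SE 0.32; edgeR adjusted p = 0.029). It was called in 14 of 19 alternatives and not with library size alone (0.61, 0.188) or without WT replicate 1 (0.110), WT replicate 2 (0.094), IRF8KO replicate 1 (0.072) or IRF8KO replicate 3 (0.161); with the GC and length correction it was at 1.71 (0.025).

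The oxygen-sensing partners of Hif1a moved in opposite directions. Vhl, which marks HIF proteins for breakdown, had 176, 206 and 238 CPM in WT and 69.5, 37.8 and 28.1 CPM in IRF8KO and fell by 2.20 on the log2 scale (SE 0.36; edgeR adjusted p = 0.0014). Egln3, a prolyl hydroxylase that prepares HIF proteins for Vhl, had 1.36, 2.12 and 2.07 CPM in WT and 28.9, 15.7 and 12.5 CPM in IRF8KO and rose by 3.33 (SE 0.51; 0.0010). The other 4 tested genes of that list were not called, and both calls held in every alternative in which the gene was tested. Among 15 tested HIF-responsive genes 2 rose and 2 fell. The 4th by p, P4ha2, named after its values were seen, was called in 6 of 18 alternatives, with an edgeR adjusted p of 0.049 as reported and up to 0.193 without IRF8KO replicate 3. It was not called without any library but WT replicate 3 (from 0.067 without IRF8KO replicate 1). The 3 with the smallest p were Fam162a (log2 fold change 1.87), P4ha1 (−1.52) and Bnip3l (−1.22), with edgeR adjusted p of 0.0036, 0.024 and 0.047. Bnip3l was called in 8 of 19 alternatives and P4ha1 in 14, and both had their lowest WT value in WT replicate 3. With the GC and length correction the log2 fold changes were −0.33 for Bnip3l (edgeR adjusted p = 0.482), −0.91 for P4ha1 (0.038) and 1.22 for Fam162a (0.044), the last of which lost its call once a replicate term was added to that correction (1.13, 0.051). P4ha1 was not called with library size without Apoe (0.071), nor was Bnip3l (0.089), which was not called with RLE scaling, limma-voom or first-strand counts either (0.050 to 0.058). P4ha1 lost its call without any 1 of WT replicates 1 and 2 and IRF8KO replicates 1 and 3 (edgeR adjusted p of 0.073, 0.081, 0.104 and 0.142), and Bnip3l without any library but WT replicate 3 (0.094 to 0.188).

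Other genes of the same and related families were read from 5 of the lists, and 19.1% of all tested genes were called. Of 12 tested sugar and lactate transporters outside the 33, Slc16a6, a monocarboxylate transporter, and Slc37a2, which carries sugar phosphates, fell, with log2 fold changes of −1.83 (SE 0.32) and −1.28 (SE 0.28; edgeR adjusted p of 0.0025 and 0.0075); 23.5% of the exonic length of Slc16a6 is shared with other genes. Of 15 other tested glycolysis genes, 1 was called, Gpd1, which links glycolysis to glycerol phosphate and fell by 2.33 (SE 0.49; edgeR adjusted p = 0.0067). In the pentose phosphate list, H6pd, the counterpart of G6pdx in the endoplasmic reticulum, fell by 1.61 (SE 0.35), and Pgls, the lactonase after G6pdx, rose by 1.21 (SE 0.37), with edgeR adjusted p of 0.0079 and 0.041. Akr1b3, aldose reductase of the polyol route, rose by 1.14 (SE 0.35; edgeR adjusted p = 0.043) and was the 1 call of 4 tested genes. Myc, a transcription factor that raises glycolytic genes, fell from 44.8 ± 16.6 to 7.34 ± 2.15 CPM (SD, n = 3; log2 fold change −2.60, SE 0.39, edgeR adjusted p = 9.1e-04) in a list of 8 with no other call. Without IRF8KO replicate 3 the calls of Slc37a2, Gpd1 and H6pd were lost (edgeR adjusted p of 0.075, 0.058 and 0.065), and those of Pgls and Akr1b3 were lost without any 1 of WT replicates 1 and 2 and IRF8KO replicates 1 and 3 (0.123 to 0.172 and 0.144 to 0.164). Gpd1 was at −1.42 without WT replicate 3 (0.010). Library size alone gave 0.79 for Pgls (0.042) and 0.70 for Akr1b3 (0.057); RLE scaling ended both calls (0.054 each), second-strand counts that of Pgls (0.063) and the GC and length correction that of Akr1b3 (0.096).

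**Figure D4:**
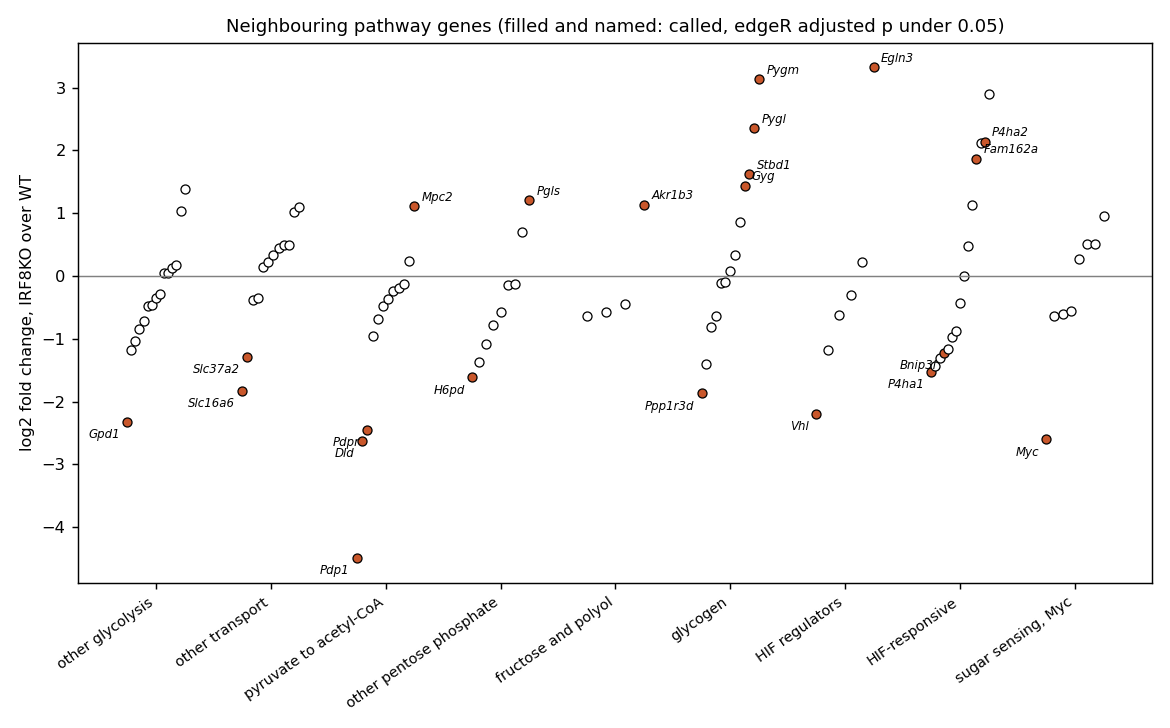
Each point is the log2 fold change of IRF8KO over WT for 1 tested gene of 9 neighbouring lists, with the 22 called genes filled and named. Calls lie on both sides of 0, with Egln3 and Pygm highest; Pdp1, the lowest point, had 0, 2 and 2 counts in IRF8KO.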

How the data were processed

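The deposited values are raw counts of uniquely mapped reads per gene, made by the authors; the submitters' processing notes name STAR 2.5.2b, Picard 2.17.11, Subread, featureCounts, bcl2fastq and the build mm10, without saying which did what. The annotation release is not given in the sources used here. Libraries were made with SMART-Seq v4 and Nextera XT, per the labels' protocols, so they carry no strand and no molecular identifiers, and the counts that ignore strand were used. Uniquely mapped reads that fell in no gene (2.44% to 7.70%) or in more than 1 (8.20% to 10.8%) stayed out of library sizes and tests. Identifiers were matched without version to GENCODE M21 (49326 of 49585), the source of gene positions, names, exonic lengths and GC content. Genes were filtered with filterByExpr (minimum count 10) and tested in edgeR 4.0.16 (R 4.3.3) with TMM scaling, the quasi-likelihood F test and Benjamini-Hochberg adjustment over 11041 genes; a call is an adjusted p under 0.05. SE is the log2 fold change divided by the root of F. The code was tested on simulated data. Alternatives were other scalings, filters, tools (DESeq2 1.42.0, limma 3.58.1), strand columns, a GC and length offset, a replicate block, each library left out, and, added after the data were seen, counts with near-identical copies. The 33 genes and all lists were chosen with earlier results of these data known. Named neighbours are the called genes with the 3 smallest p in a list. Animals were separate, per the labels. Libraries of a group differed in gene counts by more than counting noise alone (chi-square per degree of freedom at least 9.14). This does not check that the animals were separate.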

Additional observations from a re-analysis of the deposited data

How the results depend on the processing

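The number of the 33 transcripts called, 7 in the reported analysis, was 11 with library size alone, 12 with library size without Apoe, 12 with no filter on low counts, 11 with DESeq2, 11 with limma-voom, 12 with the GC and length offset and 13 with a replicate block and that offset; over all genes 23.2%, 18.8%, 12.5%, 24.4%, 20.8%, 22.4% and 20.5% were called in the same order, and 19.1% as reported. Higher calls, 1 as reported, were 6 with library size without Apoe, 5 with limma-voom, 5 with the GC and length offset with or without the block, 4 with DESeq2, and 2 with no filter, with at least 10 counts in every library, with first-strand counts or with the replicate block. Lower calls, 6 as reported, were 10 with library size alone and 10 with no filter. With 1 library left out, 3 to 19 were called, 0 to 12 higher and 3 to 7 lower; over all genes 910 to 4003, with 524 to 2168 higher and 386 to 1835 lower; and in the neighbouring lists 9 to 36, with 4 to 17 higher and 5 to 19 lower. Library size alone shifted the median of all genes from −0.11 to −0.61, gave 651 higher and 1908 lower calls over all genes, and 5 higher and 21 lower in the neighbouring lists, where 10 and 12 were reported. Across the alternatives 24 of the 33 kept their direction. The sign changed with library size alone for Pfkl (−0.20), Ldha (−0.21), Pfkfb4 (−0.43) and Pgd (−0.15); with no filter for Pfkfb4 (−0.00918); with the GC and length offset for Pdk1 (0.071, or 0.078 with the block); and when single libraries were left out for Pfkp (−0.04975 to 1.47), Pkm (−0.51 to 0.20), Pfkfb4 (−0.11 to 0.36), Pdk3 (−0.34 to 0.28) and G6pdx (−0.19 to 0.14). The Hk2 share difference was 0.264 points with first-strand counts and −4.17 to 2.92 points without single libraries, and that of Slc16a3 −0.349 to 12.7 points; the causes were not tested. Slc2a5 and Pfkfb3 were called in all 19 alternatives, 18 transcripts gained a call in some, and 8 were called in none. With the replicate block 10 were called, without Hk3 (edgeR adjusted p = 0.054) and with Slc2a3 (0.021), Hk2 (0.036), Aldoc (0.0016) and Slc16a1 (0.012); Aldoc was also called with the block and the GC and length offset (0.031). The replicate numbers were not taken as pairs: deviations of same-numbered libraries correlated at −0.26, 0.33 and 0.11, and WT replicates 1 and 2 both correlated best with IRF8KO replicate 2. Counting copies with the member left 7 calls, with the limit given above. Low counts limit Eno2, Hif1a, Slc16a1 and Pfkp.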
